A study of Sus scrofa with 18 samples.

Results

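Backfat of Ningxiang pigs at 240 days of age was compared with backfat at 180 days, gene by gene, in 6 of the 18 RNA-seq libraries of a series that runs over 6 ages. The libraries were chosen by their stage label alone, 3 at 240 days and 3 at 180 days. Every locus off the sex chromosomes with at least 0.5 FPKM (fragments scaled to transcript length and library size, a level per length) in at least 3 of the 18 libraries was tested, which kept 18731 of 27883 loci. A further 739 loci on X or Y passed the same filter and were left out.

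The 240-day group held 3 castrated male Ningxiang pigs aged 240 days, and the 180-day group held 3 castrated male Ningxiang pigs aged 180 days. No treatment is given, and all pigs were kept under the same husbandry. The pigs of a stage were full sibs and those of different stages half-sibs, so each stage was also 1 family, and age and family cannot be told apart. Ningxiang is an indigenous Chinese breed with much body fat, and the fat was taken where it is thickest over the shoulder. Total RNA was depleted of ribosomal RNA before sequencing. The libraries held 75658506 to 78623654 counts at 240 days and 78552982 to 80734422 counts at 180 days. Because the RNA came from whole tissue, fewer cells of a type and less RNA per cell cannot be told apart.

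Backfat is white adipose tissue, in which adipocytes store triglyceride in a large lipid droplet. In pigs most fatty acids are made in adipose tissue itself: glucose carbon leaves the mitochondrion as citrate, is built into palmitate by ACLY, ACACA and FASN with NADPH from enzymes such as ME1, and is lengthened by ELOVL6 and desaturated by SCD. Stored triglyceride is released by the lipases PNPLA2, LIPE and MGLL under the control of catecholamines, natriuretic peptides and insulin. Fat also secretes hormones such as leptin and adiponectin, and its adipocytes lie in a collagen-rich matrix made by fibroblasts.

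Some libraries stood apart or went against their labels, and their values stand beside each result they touch. The 4 Y-linked loci (of EIF1AY, KDM5D and ZFY) summed to 206.4, 178.4 and 206.9 CPM in the 240-day libraries, against 0.662, 0.911 and 0.892 CPM in the 180-day libraries, so the 3 libraries labelled 180 days went against the label of castrated males. Stage, family and this difference cannot be told apart within the comparison. At the other ages, 60-day replicates 1 and 3 and 120-day replicate 2 were also low, with 0.226, 0.803 and 0.742 CPM. Replicate 2 of 300 days had 13.05 CPM. The 13 tested liver transcripts summed to 9.36, 1780 and 33.1 FPKM at 240 days, against 8.11, 8.29 and 21.8 FPKM at 180 days, and 240-day replicate 2 was the high one. The 13 tested skeletal muscle transcripts summed to 54.2, 2.35 and 2.29 FPKM at 240 days, against 491, 5.68 and 2.45 FPKM at 180 days, and 180-day replicate 1 was the high one. The tissue label itself held: adipocyte markers were measured at 11 of 12 and summed to 835, 879 and 1069 FPKM at 240 days, against 595, 936 and 989 FPKM at 180 days, and only ADRB3 of that list fell below the filter.

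**Figure D1:**
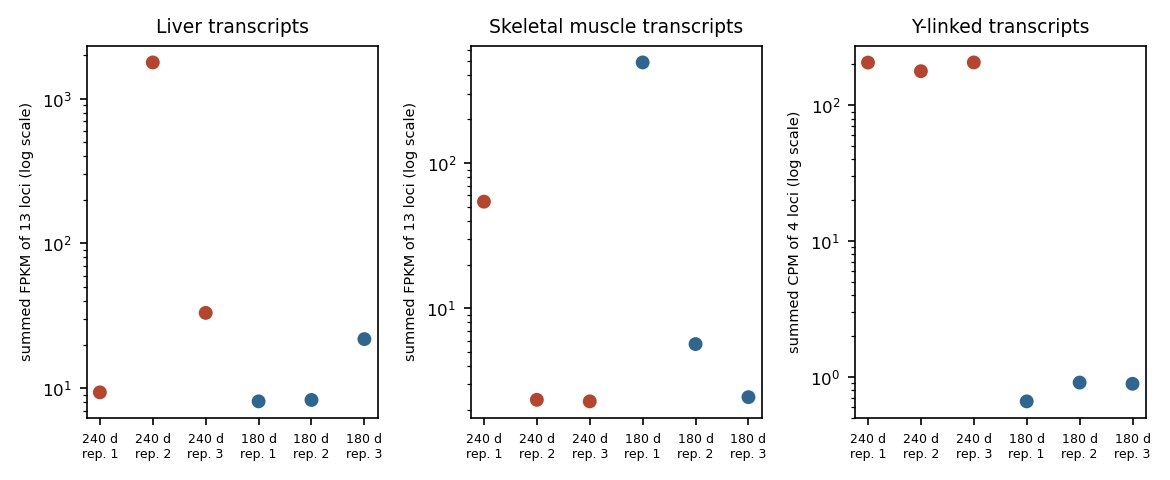
Summed level of liver transcripts (13 loci, FPKM), skeletal muscle transcripts (13 loci, FPKM) and Y-linked transcripts (4 loci, CPM) in each of the 6 libraries, on log axes, with 1 point per library. Replicate 2 of 240 days stands out for liver transcripts and replicate 1 of 180 days for muscle transcripts, and the Y-linked level separates the stages.

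No locus was called between 240 and 180 days at an adjusted p of at most 0.05 and a log2 fold change of at least 1 in size (0 of 18731, or 0.0% in each direction, edgeR quasi-likelihood test with Benjamini-Hochberg adjustment). The lowest adjusted p was 0.060. At an unadjusted p under 0.05 there were 1702 loci (9.09%), of which 911 (4.86%) were higher and 791 (4.22%) lower at 240 days. By other tools the count of calls was 91 with DESeq2 and 75 with edgeR's exact test on only the 6 libraries, so the number called depended on the tool. All 3 libraries at 240 days lay above all 3 at 180 days at 1358 loci (7.25%) and below them at 1362 loci (7.27%) by scaled CPM, while by deposited FPKM the split was 1059 above and 1689 below. The fitted mean was higher at 240 days at 49.6% of loci. The median log2 fold change of all tested loci, 240 over 180 days, was -0.003, with quartiles of -0.206 and 0.204. The genes below are therefore given by their values, and none of them passed the adjusted test.

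The 20 genes per direction with the largest fold changes were taken among 96 loci higher and 73 lower at 240 days that had 1 gene symbol, at least 2 FPKM, an unadjusted p under 0.01 and no overlap between stages. The chosen genes on the higher side fell into those set by 1 library and those high in all 3. FOSB, a subunit of the AP-1 transcription factor that is induced within minutes of a stimulus, had 42.5, 25.2 and 33.4 FPKM in the 240-day libraries, against 11.06, 9.98 and 11.8 FPKM in the 180-day libraries. Its log2 fold change was 1.65 (SE 0.39, unadjusted p = 0.000786, adjusted p = 0.265). FOSB lies on chromosome 6 (51837689 to 51847951 in the coordinates of the deposited table, which follow version 11.1 of the pig genome).

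GM2A, the activator protein that presents GM2 ganglioside for breakdown in lysosomes, had 17.99, 11.4 and 11.8 FPKM at 240 days, against 3.62, 5.09 and 2.88 FPKM at 180 days. The log2 fold change of GM2A was 1.87 (SE 0.44), and it kept between 1.64 and 2.10 whichever of the 6 libraries was left out. SPP1 encodes osteopontin, a secreted glycoprotein made by macrophages among other cells. It had 10.3, 11.5 and 6.94 FPKM at 240 days, against 3.12, 2.28 and 2.02 FPKM at 180 days (log2 fold change 1.99, SE 0.57). With the Y-linked level added to the fit its log2 fold change was 1.31, at an unadjusted p of 0.0933. SPP1 is 1 of the 11 tested markers of lipid-laden macrophages. Of these 8 had a higher fitted mean at 240 days, against 49.6% of all loci. Their median log2 fold change was 0.154, and 0.035 with the Y-linked level in the fit. The summed markers of the general macrophage list were 87.7, 81.7 and 67.7 FPKM at 240 days, against 56.4, 67.0 and 108 FPKM at 180 days, and the stages overlapped.

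PRR5L, a partner of the mTORC2 complex, had the lowest p of the genes chosen. It had 3.66, 5.31 and 4.07 FPKM at 240 days, against 1.75, 1.42 and 1.94 FPKM at 180 days (log2 fold change 1.39, SE 0.23, adjusted p = 0.0958). HSD11B1, the enzyme that regenerates active cortisol from cortisone in adipose tissue, had 2.96, 4.66 and 2.37 FPKM at 240 days, against 1.62, 1.56 and 1.55 FPKM at 180 days. Its 180-day libraries were almost level, and the lowest 240-day library lay above all of them (log2 fold change 1.12, SE 0.29). The highest HSD11B1 value at 240 days was in replicate 2, the library with the liver transcripts. At 300 days HSD11B1 had 1.64, 2.98 and 1.75 FPKM, and replicate 2 of that age carried liver transcripts as well. A share from liver transcripts was not tested. CERS4, a ceramide synthase, had 1.84, 3.11 and 2.82 FPKM at 240 days, against 1.26, 1.53 and 1.16 FPKM at 180 days (log2 fold change 1.02, SE 0.27). B4GALT6, which makes lactosylceramide from glucosylceramide, had 2.73, 3.44 and 3.66 FPKM at 240 days, against 0.952, 2.29 and 1.68 FPKM at 180 days (log2 fold change 1.04, SE 0.27).

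Among the other higher genes, GALNT15, an enzyme that starts O-linked glycosylation, had 12.2, 3.47 and 3.75 FPKM at 240 days, against 2.08, 1.82 and 2.08 FPKM at 180 days. Much of that difference lay in 240-day replicate 1, and the log2 fold change of 1.73 was 0.90 without it. CDC42EP3, an effector of the GTPase CDC42, had 4.84, 4.65 and 6.03 FPKM at 240 days, against 3.39, 2.26 and 2.15 FPKM at 180 days. SLITRK6 encodes a membrane protein with leucine-rich repeats, and it had 8.34, 6.44 and 6.22 FPKM at 240 days, against 3.004, 3.73 and 2.32 FPKM at 180 days. NOBOX, known as a homeobox factor of the oocyte, had 3.19, 2.03 and 2.04 FPKM at 240 days, against 0.109, 0.0217 and 0.121 FPKM at 180 days. It also varied among full sibs of 1 age, with 3.75, 2.62 and 0 FPKM at 300 days. NOBOX had 0.162, 0.8865 and 0.688 FPKM at 60 days, at most 0.0117 FPKM at 120 days and 0.563 to 1.12 FPKM at 360 days. TOPAZ1 and ZSWIM4 had log2 fold changes of 1.41 and 1.02. WDR93 had 6.33, 2.14 and 2.02 FPKM at 240 days, against 0.756, 0.822 and 1.21 FPKM at 180 days, and its log2 fold change of 1.94 was 1.21 without 240-day replicate 1.

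The remaining 6 genes on the higher side, APOA2, AKR1D1, ARG1, A2M, C5 and PCK2, were high in 240-day replicate 2, the library with the liver transcripts. APOA2, an apolipoprotein of high-density lipoprotein, had 0.593, 45.3 and 0.605 FPKM at 240 days, against 0.131, 0 and 0.287 FPKM at 180 days. C5, the fifth complement component, had 0.735, 15.1 and 0.627 FPKM at 240 days, against 0.447, 0.515 and 0.443 FPKM at 180 days. Without that library the log2 fold change was 2.03 in place of 6.77 for APOA2, 0.55 in place of 3.62 for C5 and 1.51 in place of 3.97 for A2M. PCK2, the mitochondrial phosphoenolpyruvate carboxykinase, had 2.29, 11.9 and 1.65 FPKM at 240 days, against 0.999, 0.508 and 0.542 FPKM at 180 days, and its log2 fold change of 3.01 was 1.54 without replicate 2. At 60, 120 and 360 days PCK2 had 1.62 to 2.56 FPKM, above all 180-day libraries. At 300 days it had 2.20, 7.36 and 0.954 FPKM.

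On the lower side, SCD, the stearoyl-CoA desaturase that puts the double bond into oleate and palmitoleate, was the most abundant gene chosen. It had 744, 1296 and 719 FPKM at 240 days, against 2814, 1899 and 2364 FPKM at 180 days (log2 fold change -1.32, SE 0.35, unadjusted p = 0.00182). The highest 240-day library lay below the lowest 180-day one, and the log2 fold change stayed between -1.68 and -1.16 with each of the 6 libraries left out. SCD lies on chromosome 14 (111460640 to 111478031).

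CPXM1, a secreted carboxypeptidase-like protein that binds collagen, had 1.77, 1.26 and 1.26 FPKM at 240 days, against 7.59, 4.01 and 4.72 FPKM at 180 days (log2 fold change -1.90, SE 0.33, adjusted p = 0.139). It was the gene with the lowest p on this side. PPP1R1A, an inhibitor of protein phosphatase 1 that is active when phosphorylated by protein kinase A, had 4.60, 4.76 and 4.17 FPKM at 240 days, against 15.6, 11.7 and 5.98 FPKM at 180 days (log2 fold change -1.26, SE 0.30). SLC16A1, the monocarboxylate carrier that moves lactate and pyruvate, had 4.11, 6.23 and 5.57 FPKM at 240 days, against 7.36, 11.5 and 9.40 FPKM at 180 days (log2 fold change -0.78, SE 0.17). KCP, a secreted modulator of BMP signals, had 0.946, 1.68 and 1.08 FPKM at 240 days, against 3.75, 2.79 and 2.54 FPKM at 180 days (log2 fold change -1.25, SE 0.32).

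MGST2, a microsomal glutathione transferase, had 0.826, 1.13 and 0.679 FPKM at 240 days, against 2.34, 2.38 and 1.37 FPKM at 180 days. FXYD1, or phospholemman, a regulator of the sodium pump, had 15.3, 19.6 and 18.7 FPKM at 240 days, against 34.0, 29.5 and 28.3 FPKM at 180 days, a log2 fold change of -0.74 that was -0.40 with the Y-linked level in the fit. CTSC, the lysosomal dipeptidyl peptidase, had 6.74, 4.61 and 5.58 FPKM at 240 days, against 8.21, 8.41 and 13.4 FPKM at 180 days. The other members of this side were FAM111A, MFSD4B, HECTD2, ZC3H12C, RINL and PPP1R1C, with log2 fold changes from -0.97 to -0.75.

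Among the lower genes, 5 leaned on 1 library of 180 days. ASB5, known from muscle, had 2.81, 2.33 and 2.70 FPKM at 240 days, against 12.7, 4.001 and 3.53 FPKM at 180 days, and its log2 fold change of -1.33 was -0.48 without 180-day replicate 1, the library with the muscle transcripts. USP13, a ubiquitin protease, went the same way, with a log2 fold change of -1.17 that was -0.48 without that library, and TMEM176B had -1.64 and -1.03. Replicate 3 of 180 days was high for FAM171B and ZSWIM2. FAM171B had 1.07, 0.890 and 0.732 FPKM at 240 days, against 1.145, 1.47 and 7.44 FPKM at 180 days. Its log2 fold change of -1.87 was -0.50 without that replicate. For ZSWIM2 the log2 fold change was -2.32, and -1.18 without it. PRSS35, a serine protease, was the lower gene of the largest size, with 0.955, 1.16 and 0.774 FPKM at 240 days, against 6.24, 1.86 and 8.76 FPKM at 180 days (log2 fold change -2.51, SE 0.65), and it kept -2.04 without replicate 3.

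All 40 genes kept their sign when the Y-linked level entered the fit as a covariate, and 17 of the 20 higher and 16 of the 20 lower ones then had an unadjusted p under 0.05. Within the comparison the Y-linked level separates the stages. The covariate is therefore set mainly by libraries at 60, 120 and 300 days, where the level varied within a stage, and this fit cannot separate stage from the Y-linked difference. With DESeq2, 14 of the 20 higher and 7 of the 20 lower genes passed the adjusted threshold with a log2 fold change of at least 1 in size. With edgeR's exact test on only the 6 libraries these counts were 8 and 4. The 40 genes were chosen by fold change, p and lack of overlap on these same counts. Keeping their sign or passing another test is therefore not independent evidence.

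**Figure D2:**
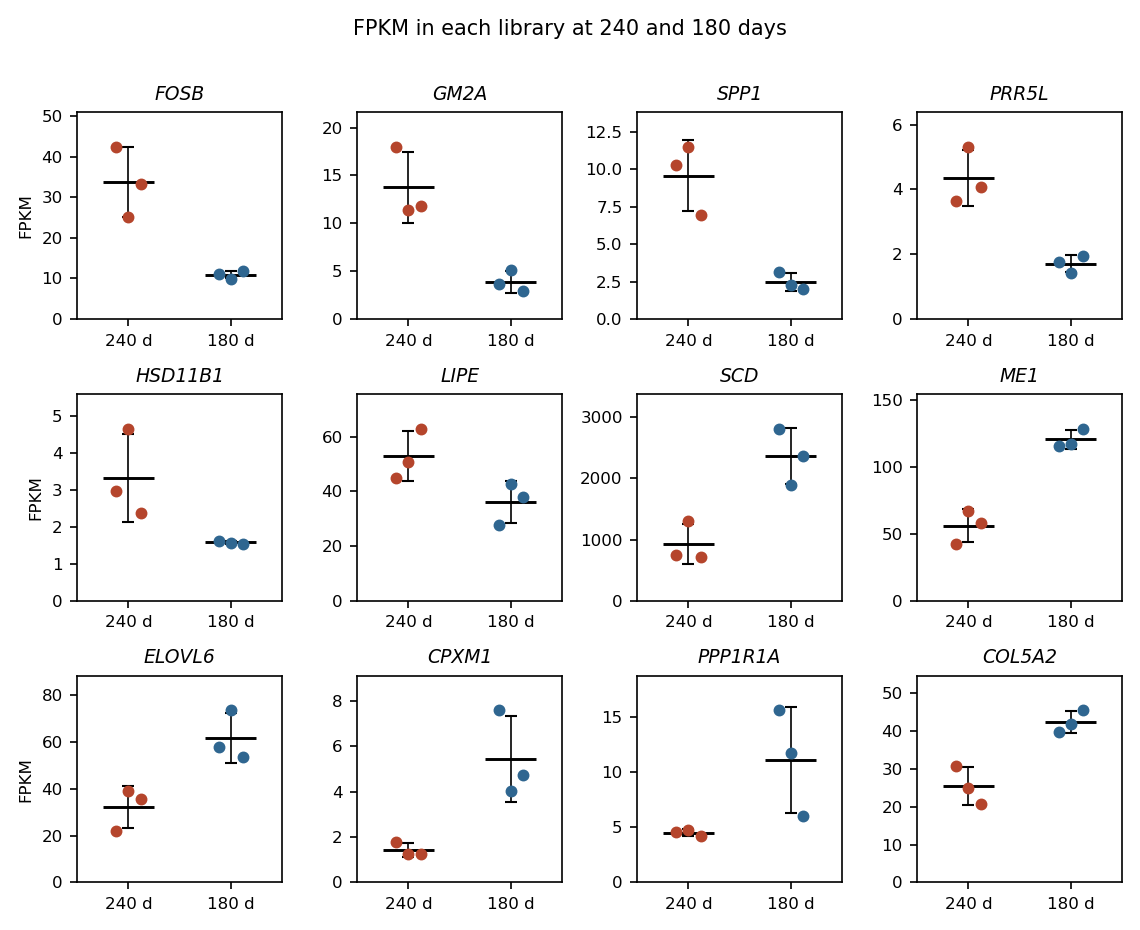
FPKM of 12 genes in each library, with 240 days on the left and 180 days on the right of each panel (points are libraries, the bar is the mean and the whisker the SD, n = 3 each). FOSB, GM2A, SPP1, PRR5L, HSD11B1 and LIPE lie higher at 240 days, SCD, ME1, ELOVL6, CPXM1, PPP1R1A and COL5A2 lie lower, and the points of the stages do not overlap in any panel. The rule that chose the genes required this for all but LIPE, ME1, ELOVL6 and COL5A2, which were picked from the gene lists.

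The gene lists that follow were chosen with earlier results of these data known. They are described by counts and medians, to be read against the values over all loci: 49.6% had a higher fitted mean, 7.25% were apart above, 7.27% were apart below and the median was -0.003. Of their members 0 were called. "Apart" means that the scaled CPM of the stages did not overlap.

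Immediate early genes, which code for transcription factors and feedback proteins induced without new protein synthesis, were mostly higher at 240 days. Of 36 tested members, 31 had a higher fitted mean, 8 had all 3 libraries above those of 180 days and 0 had all 3 below. The median log2 fold change was 0.391, against -0.003 over all loci, and 10 members had an unadjusted p under 0.05, all higher. EGR1, a zinc finger factor, had 34.8, 23.6 and 30.6 FPKM at 240 days, against 13.1, 20.8 and 18.4 FPKM at 180 days (log2 fold change 0.80, SE 0.23). MYC, the growth-promoting factor, had 5.70, 4.28 and 4.27 FPKM at 240 days, against 2.81, 3.21 and 3.65 FPKM at 180 days (0.60, SE 0.18). ZFP36, which hastens the decay of cytokine mRNAs, had 17.7, 19.6 and 18.8 FPKM at 240 days, against 5.85, 12.1 and 14.2 FPKM at 180 days (0.84, SE 0.29). IER2 and BTG2, which are also early response genes, and CCN1, a matrix-associated signalling protein, were apart in the same direction, with log2 fold changes of 0.94, 0.62 and 0.62.

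FOS and DUSP1 differed among the 180-day pigs more than between the stages. FOS, the partner of JUN in AP-1, had 65.9, 61.0 and 63.6 FPKM at 240 days, against 7.996, 40.2 and 66.6 FPKM at 180 days. DUSP1, a phosphatase that shuts off MAP kinases, had 55.9, 64.1 and 56.1 FPKM at 240 days, against 11.99, 53.5 and 63.1 FPKM at 180 days. In both genes replicate 1 of 180 days was the low one and replicate 3 lay within or above the 240-day range. Without replicate 1 of 180 days, 30 of the 36 members were still higher at 240 days, with a median of 0.295, and over the other 5 libraries left out in turn 29 to 33 were higher, with the highest median, 0.602, without 180-day replicate 3. The members with the lowest fitted values were IER5, KLF4, GADD45B, GADD45A and ATF3, between -0.27 and -0.035.

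Genes tied to glucocorticoid action had a median of 0.491 over 14 tested members, of which 11 were higher, 2 apart above, 1 apart below and 4 at an unadjusted p under 0.05. The median ran from 0.299 (without 180-day replicate 1) to 0.575 (without 240-day replicate 3). ZBTB16, a zinc finger factor strongly induced by glucocorticoids, had 18.6, 14.5 and 15.7 FPKM at 240 days, against 11.8, 11.4 and 8.09 FPKM at 180 days (log2 fold change 0.68, SE 0.17). CRISPLD2 had 9.01, 4.30 and 3.93 FPKM at 240 days, against 4.05, 3.16 and 3.40 FPKM at 180 days (0.73, SE 0.34). The receptor NR3C1 itself had 6.51, 6.01 and 6.36 FPKM at 240 days, against 6.596, 7.02 and 7.28 FPKM at 180 days, a log2 fold change of -0.11. FKBP5, a co-chaperone of the receptor and a classic target, had 6.71, 5.34 and 5.07 FPKM at 240 days, against 7.83, 3.96 and 1.95 FPKM at 180 days, and the stages overlapped. KLF9, another target, had 7.58, 6.43 and 8.07 FPKM at 240 days, against 11.7, 6.77 and 6.71 FPKM at 180 days. The list shares PER1, DUSP1 and SGK1 with the immediate early genes.

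Genes of fatty acid synthesis went the other way. Of 19 tested members, 16 had a lower fitted mean at 240 days, 5 had all 3 libraries below those of 180 days and 0 had all 3 above, with a median of -0.202. The 5 apart were SCD, ME1, ELOVL6, SLC25A1 and ELOVL1, and each had an unadjusted p under 0.05. ME1, the cytosolic malic enzyme that supplies NADPH, had 42.6, 66.9 and 58.3 FPKM at 240 days, against 116, 117 and 129 FPKM at 180 days (log2 fold change -1.07, SE 0.47). ELOVL6, which lengthens palmitate to stearate, had 21.8, 38.8 and 35.6 FPKM at 240 days, against 57.7, 73.5 and 53.5 FPKM at 180 days (-0.89, SE 0.31). SLC25A1, the mitochondrial citrate carrier, had 8.38, 9.15 and 7.81 FPKM at 240 days, against 12.4, 18.5 and 11.6 FPKM at 180 days (-0.70, SE 0.30).

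The core enzymes of palmitate synthesis did not separate the stages. FASN, the fatty acid synthase, had 1381, 1602.5 and 1518 FPKM at 240 days, against 1869.5, 1683 and 1723 FPKM at 180 days, a log2 fold change of -0.19 with an SE of 0.26. By deposited FPKM its 3 libraries at 240 days were the lower ones, whereas on the scaled counts used for the list they overlapped with 180 days. ACLY, which splits citrate to acetyl-CoA, had 104, 196 and 101 FPKM at 240 days, against 159, 148 and 106 FPKM at 180 days (0.00, SE 0.46). ACACA, the acetyl-CoA carboxylase, had 65.2, 88.4 and 58.5 FPKM at 240 days, against 55.0, 66.1 and 54.3 FPKM at 180 days (0.32, SE 0.29). The regulators differed in sign: SREBF1, the sterol-responsive factor of lipogenesis, had a log2 fold change of -0.48 (SE 0.26) and MLXIPL, the carbohydrate-responsive factor, 0.41 (SE 0.31). Leaving out each of the 6 libraries left 14 to 17 of the 19 members lower, with medians from -0.381 (without 240-day replicate 2) to -0.161 (without 180-day replicate 2).

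**Figure D3:**
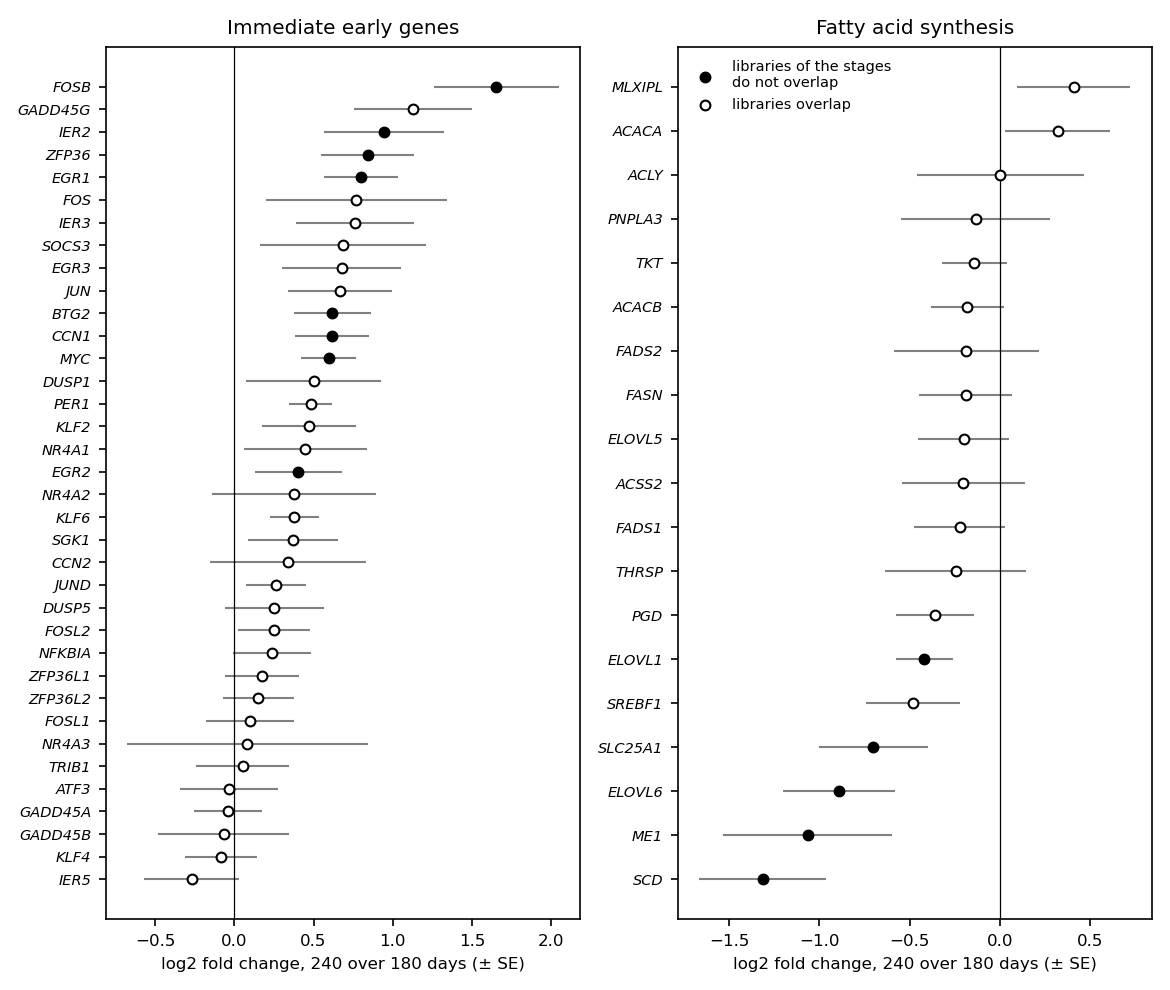
Log2 fold change, 240 over 180 days, with its standard error for each tested member of the immediate early genes (left, 36 members) and of fatty acid synthesis (right, 19 members). Filled points mark members whose libraries do not overlap between the stages, 8 in the left panel, all higher at 240 days, and 5 in the right panel, all lower.

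Genes of triglyceride release and of fatty acid uptake lay slightly higher at 240 days. Of 23 tested members of the lipolysis list, 18 had a higher fitted mean, 4 were apart above and 1 apart below, with a median of 0.188. LIPE, the hormone-sensitive lipase, had 44.9, 50.6 and 63.0 FPKM at 240 days, against 27.8, 42.6 and 38.0 FPKM at 180 days (log2 fold change 0.59, SE 0.21, unadjusted p = 0.0122). MGLL, which cleaves the last fatty acid, had 14.8, 21.5 and 24.7 FPKM at 240 days, against 11.2, 16.9 and 16.2 FPKM at 180 days (0.51, SE 0.18). G0S2, an inhibitor of the lipase PNPLA2, had 1.504, 3.51 and 2.33 FPKM at 240 days, against 0.796, 1.21 and 0.891 FPKM at 180 days (1.38, SE 0.52), so the list holds genes that promote and genes that restrain release.

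PNPLA2, the lipase of the first step, had 17.8, 20.1 and 19.8 FPKM at 240 days, against 14.5, 20.5 and 17.1 FPKM at 180 days, with overlapping stages. PLIN1, which coats the droplet and gates the lipases, had 73.1, 76.2 and 85.0 FPKM at 240 days, against 60.7, 69.8 and 59.1 FPKM at 180 days (0.34, SE 0.17). NPR3, the clearance receptor of natriuretic peptides, had 4.76, 3.43 and 6.91 FPKM at 240 days, against 1.76, 4.03 and 2.47 FPKM at 180 days (0.91, SE 0.31). Replicate 1 of 180 days was the lowest library for LIPE, MGLL and NPR3, and the median of the lipolysis list ran from 0.075 without it to 0.307 without 180-day replicate 2.

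Of 15 tested genes of fatty acid uptake and activation, 12 were higher at 240 days and 4 apart above, with a median of 0.161 that ran from 0.049 (without 180-day replicate 1) to 0.363 (without 180-day replicate 2). SLC27A1, a fatty acid transport protein, had 2.48, 2.27 and 3.22 FPKM at 240 days, against 2.06, 1.69 and 1.59 FPKM at 180 days (log2 fold change 0.61, SE 0.20). VLDLR, the receptor of very-low-density lipoprotein, had 8.48, 10.8 and 12.1 FPKM at 240 days, against 7.96, 7.13 and 8.11 FPKM at 180 days (0.47, SE 0.19). LPL, the lipoprotein lipase at the vessel wall, had 292, 281 and 365 FPKM at 240 days, against 297, 354 and 215 FPKM at 180 days, and did not separate them. In triglyceride assembly, 9 of 15 members were higher and 6 lower, with a median of 0.054 that ran from -0.036 (without 240-day replicate 2) to 0.147 (without 180-day replicate 2). AQP7, the glycerol channel, had 8.23, 9.66 and 11.5 FPKM at 240 days, against 4.98, 7.802 and 7.72 FPKM at 180 days (0.56, SE 0.20), whereas DGAT2, the enzyme of the last step, had 389, 529 and 322 FPKM at 240 days, against 469, 471 and 437 FPKM at 180 days (-0.11, SE 0.26).

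Genes of oxidative phosphorylation differed little between the stages and mostly in the same direction. Of 34 tested subunits of oxidative phosphorylation, 29 had a lower fitted mean at 240 days and 9 were apart below, with a median of only -0.117 and 1 member at an unadjusted p under 0.05. ATP5F1A, the alpha subunit of ATP synthase, had 65.5, 80.1 and 76.6 FPKM at 240 days, against 98.3, 109 and 98.8 FPKM at 180 days (log2 fold change -0.42, SE 0.20). The median of this list lay inside the quartiles of all loci, and with the Y-linked level in the fit it was -0.051. The 31 proteasome subunits were alike, with 26 lower, 6 apart below and a median of -0.128 (-0.064 without 240-day replicate 1, and -0.034 with the Y-linked level in the fit).

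PDHB, DLAT, MDH1 and PDK1, which act around pyruvate and malate, stood apart in the citrate cycle list, whose median over 22 members was -0.028 and ran from -0.088 (without 240-day replicate 2) to 0.036 (without 240-day replicate 1). PDHB, the beta subunit of the E1 component of pyruvate dehydrogenase, had 11.6, 15.1 and 12.3 FPKM at 240 days, against 25.4, 36.2 and 18.8 FPKM at 180 days (log2 fold change -0.998, SE 0.34). DLAT, the E2 component of that complex, had 6.01, 6.91 and 6.30 FPKM at 240 days, against 10.7, 10.2 and 7.30 FPKM at 180 days (-0.51, SE 0.20). MDH1, the cytosolic malate dehydrogenase that feeds ME1, had 86.6, 118 and 129 FPKM at 240 days, against 168, 171 and 193 FPKM at 180 days (-0.63, SE 0.22). PDK1, a kinase that inactivates pyruvate dehydrogenase, had 6.97, 8.82 and 8.61 FPKM at 240 days, against 13.4, 9.88 and 11.9 FPKM at 180 days (-0.49, SE 0.20). These 4 were the members apart below, and 0 members were apart above.

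Branched-chain amino acid breakdown, which feeds acetyl-CoA to lipid synthesis in fat cells, had 4 of 18 members apart below and 1 apart above, with a median of -0.049. The median ran from -0.164 (without 180-day replicate 1) to 0.029 (without 180-day replicate 2) and was 0.025 with the Y-linked level in the fit. IVD, the isovaleryl-CoA dehydrogenase of leucine breakdown, had 18.1, 19.7 and 31.8 FPKM at 240 days, against 34.5, 38.3 and 37.8 FPKM at 180 days (log2 fold change -0.63, SE 0.20). MCCC1, the next enzyme of that route, had 8.64, 8.92 and 8.79 FPKM at 240 days, against 10.6, 12.5 and 11.2 FPKM at 180 days (-0.34, SE 0.14). Fatty acid oxidation had 10 members higher and 17 lower of 27, with a median of -0.054, and 0 had an unadjusted p under 0.05. That median was above 0 without 240-day replicate 1 (0.057), without 180-day replicate 2 (0.065) and with the Y-linked level in the fit (0.084). Glycolysis had 12 of 18 lower, with a median of -0.167, but 3 of its largest values, ENO3, LDHA and GAPDH, were highest in the 180-day library with the muscle transcripts, and without it the median was -0.003.

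Among transcription factors of adipocytes the members split. CEBPB, an early factor of adipocyte differentiation, had 47.0, 55.6 and 50.8 FPKM at 240 days, against 26.3, 37.3 and 42.3 FPKM at 180 days (log2 fold change 0.58, SE 0.17). PPARG, the master regulator of adipocytes, had 4.71, 6.32 and 5.86 FPKM at 240 days, against 8.20, 8.32 and 6.70 FPKM at 180 days (-0.42, SE 0.16). CEBPA, the other late factor, had 50.8, 51.9 and 49.3 FPKM at 240 days, against 45.0, 53.8 and 53.0 FPKM at 180 days, and did not separate them. Over the 19 tested members 11 were higher and 8 lower, with a median of 0.060 that ran from 0.024 (without 180-day replicate 1) to 0.124 (without 240-day replicate 2).

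Of the 16 tested adipokines 13 were higher at 240 days, with LEP apart above, LCN2 apart below and a median of 0.173. The median ran from 0.058 (without 240-day replicate 2) to 0.354 (without 180-day replicate 3). LEP, or leptin, whose level follows fat mass, had 23.3, 18.3 and 17.4 FPKM at 240 days, against 13.2, 7.204 and 5.84 FPKM at 180 days (log2 fold change 1.21, SE 0.56, unadjusted p = 0.0501). ADIPOQ, or adiponectin, had 155, 180.3 and 213 FPKM at 240 days, against 100.1, 214 and 183 FPKM at 180 days, with overlapping stages. In insulin signalling 15 of 21 members were higher, 5 apart above and 1, PIK3CB, apart below, with a median of 0.143 that ran from 0.071 (without 240-day replicate 2) to 0.179 (without 180-day replicate 1). IRS2, an adaptor of the insulin receptor, had 14.7, 14.1 and 16.2 FPKM at 240 days, against 10.998, 10.9 and 9.61 FPKM at 180 days (0.55, SE 0.17).

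The IGF system held members of both signs, with a median of 0.295 over 14 that ran from 0.107 (without 240-day replicate 2) to 0.461 (without 240-day replicate 3). IGFBP4, a binding protein that restrains IGF, had 16.9, 21.5 and 18.2 FPKM at 240 days, against 7.86, 12.4 and 14.8 FPKM at 180 days (log2 fold change 0.74, SE 0.25). STC1, or stanniocalcin, had 3.14, 4.40 and 5.04 FPKM at 240 days, against 1.61, 2.24 and 1.22 FPKM at 180 days (1.35, SE 0.48). IGFBP7 had 8.30, 9.68 and 9.61 FPKM at 240 days, against 11.7, 14.7 and 14.3 FPKM at 180 days (-0.52, SE 0.22). Among clock genes NR1D2, a nuclear receptor that represses the clock, had 13.7, 15.5 and 15.9 FPKM at 240 days, against 18.7, 22.7 and 23.6 FPKM at 180 days (-0.49, SE 0.13). The median over the 19 clock genes was 0.041 and ran from -0.137 (without 180-day replicate 1) to 0.010 (without 240-day replicate 1) when each of the 6 libraries was left out, and the hour of sampling was not given in the sources used here.

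**Figure D4:**
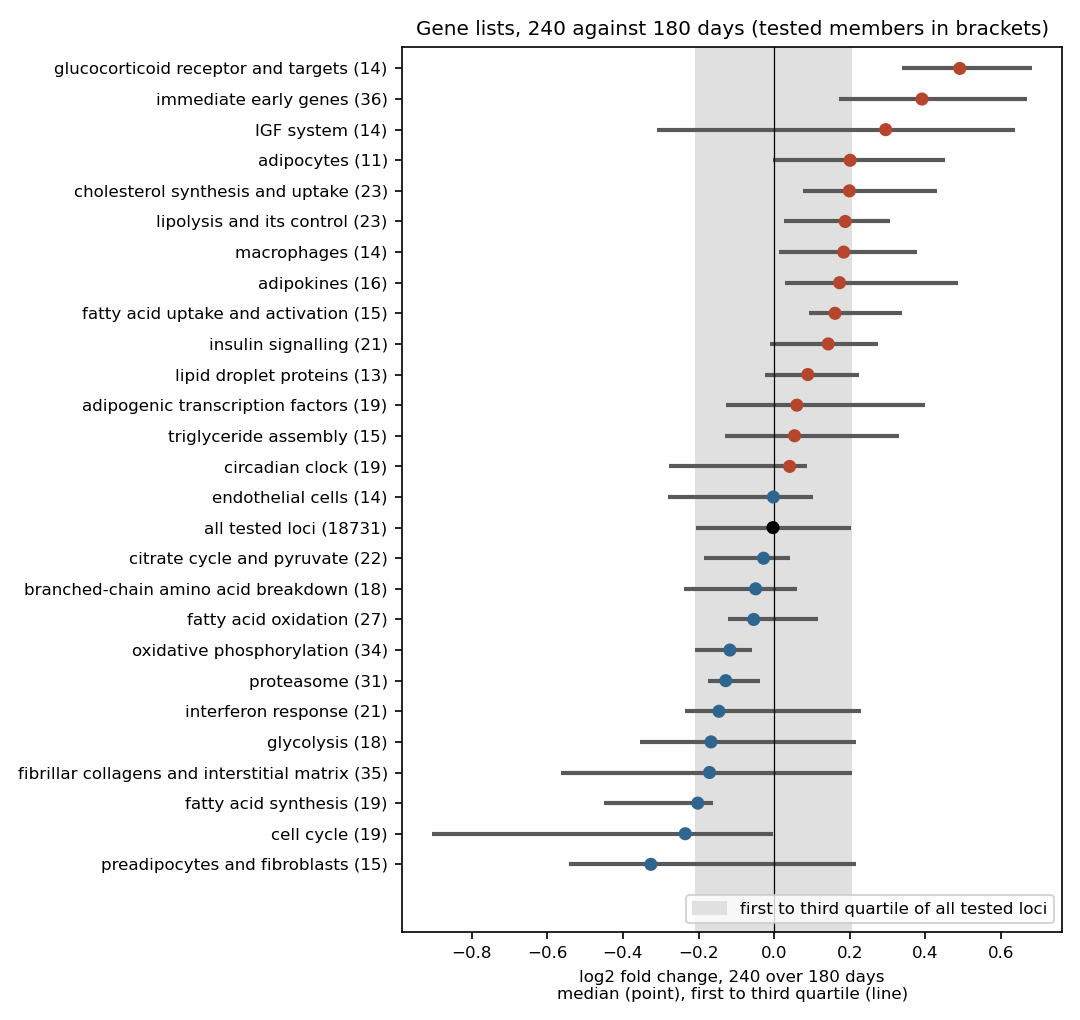
Median (point) and the first to the third quartile (line) of the log2 fold change, 240 over 180 days, for 26 of the 52 gene lists and for all 18731 tested loci, whose quartiles are shaded. Among the lists drawn, glucocorticoid-related and immediate early genes lie farthest to the right, and fatty acid synthesis, cell cycle and fibroblast lists lie to the left. Lists not drawn reached farther, with medians of 6.773 for liver, 1.533 for red blood cells, 0.501 for lymphatic endothelium and -2.204 for skeletal muscle.

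The result for matrix genes depended on replicate 1 of each stage. Over 35 tested collagen and other matrix genes, 15 were higher and 20 lower, with a median of -0.171, which was -0.580 without 240-day replicate 1 and 0.023 without 180-day replicate 1. COL1A1, the chain of type I collagen, had 756, 189 and 181 FPKM at 240 days, against 955, 349 and 313 FPKM at 180 days, so replicate 1 was the highest library in each stage. COL5A2, a chain of type V collagen that starts fibrils, was apart with 30.9, 25.1 and 20.8 FPKM at 240 days, against 39.9, 41.8 and 45.6 FPKM at 180 days (log2 fold change -0.69, SE 0.18). SPARC, a collagen-binding matricellular protein, had 496, 369 and 399.9 FPKM at 240 days, against 803, 625 and 569 FPKM at 180 days (-0.63, SE 0.17).

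Other matrix genes were far higher in replicate 1 of 240 days than in its full sibs. TNC, or tenascin-C, a matricellular protein of remodelling tissue, had 17.5, 4.01 and 3.56 FPKM at 240 days, against 2.28, 2.36 and 2.61 FPKM at 180 days (log2 fold change 1.82, SE 0.75). THBS1, or thrombospondin, had 256, 54.5 and 77.1 FPKM at 240 days, against 37.0, 66.9 and 69.7 FPKM at 180 days. PRELP, a small leucine-rich proteoglycan, had 49.1, 14.0 and 16.1 FPKM at 240 days, against 10.4, 9.77 and 10.5 FPKM at 180 days (1.39, SE 0.52). TNC and PRELP were apart, whereas THBS1 was not. The same pig had 2.90 FPKM of GREM1, an antagonist of BMPs, against 0.110 and 0.453 FPKM in the other two 240-day libraries and 0.0889, 0.0944 and 0.212 FPKM at 180 days.

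The QPCR genes are the ones chosen for measurement by quantitative PCR. Of these 13 genes, 2 had a higher and 11 a lower fitted mean at 240 days, with a median of -0.205, and 0 were apart between the stages. Replicate 1 of 240 days stood apart for this list, and without it 12 were lower with a median of -0.629. With the Y-linked level in the fit all 13 were lower, with a median of -0.577. The list was picked on these same samples, so its direction is not independent evidence. SELP, or P-selectin, the adhesion receptor of activated endothelium and platelets, had 0.601, 1.07 and 0.737 FPKM at 240 days, against 0.804, 1.99 and 2.75 FPKM at 180 days (log2 fold change -1.16, SE 0.39, unadjusted p = 0.00864). DCN, or decorin, a proteoglycan that binds collagen, had 74.7, 41.8 and 47.1 FPKM at 240 days, against 82.3, 68.5 and 94.8 FPKM at 180 days (-0.56, SE 0.23). The largest positive value was that of DNM1, at 0.15 (SE 0.32).

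Marker lists of other cell types differed in sign, and several medians changed when a library was left out or the Y-linked level entered the fit. That level separates the 2 stages, so its effect in the fit is set mainly by libraries of other ages. The endothelial list had 7 higher and 7 lower of 14 with a median of -0.002, and the T and NK cell list a median of 0.024 over 9, which was -0.964 with 8 of 9 lower when the Y-linked level entered the fit. The preadipocyte and fibroblast list had 7 higher and 8 lower of 15 with a median of -0.326, which ran from -0.483 (without 240-day replicate 1) to 0.036 (without 180-day replicate 3). Only AHSP and EPB42 of the red blood cell markers were tested, both higher at 240 days with a median of 1.533 (1.271 to 1.791 over the 6 libraries left out). AHSP, a chaperone of alpha globin, had 1.32, 1.55 and 0.269 FPKM at 240 days, against 0.228, 0.207 and 0 FPKM at 180 days. The 7 markers of lymphatic endothelium were all higher at 240 days with a median of 0.501, which was -0.056 without 240-day replicate 1. Within the endothelial list KDR, the main VEGF receptor, had 10.8, 14.3 and 18.1 FPKM at 240 days, against 16.6, 23.8 and 20.3 FPKM at 180 days (log2 fold change -0.45, SE 0.19). ROBO4, a guidance receptor of vessels, had 12.8, 13.3 and 14.2 FPKM at 240 days, against 8.08, 11.8 and 11.1 FPKM at 180 days (0.42, SE 0.17). The macrophage list had 11 of 14 higher with a median of 0.184, and 0 members were apart or had an unadjusted p under 0.05. Its median ran from -0.034 (without 180-day replicate 1) to 0.619 (without 180-day replicate 3), and was -0.026 with the Y-linked level in the fit.

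Cell cycle genes were low in all libraries and lower at 240 days in 14 of 19 members, with 7 apart below (7.27% of all loci were), 0 above and a median of -0.235. The median ran from -0.560 (without 240-day replicate 1) to -0.082 (without 240-day replicate 3). MKI67, the proliferation marker, had 0.667, 0.431 and 0.346 FPKM at 240 days, against 1.23, 0.864 and 0.716 FPKM at 180 days (log2 fold change -0.92, SE 0.49). TOP2A, the topoisomerase of dividing cells, had 0.529, 0.403 and 0.422 FPKM at 240 days, against 1.13, 0.994 and 0.807 FPKM at 180 days (-1.08, SE 0.58). Their p-values, 0.0782 and 0.084 unadjusted, did not pass. Cholesterol synthesis and uptake had 18 of 23 members higher at a median of 0.199, but without 240-day replicate 2 only 5 were higher and the median was -0.186.

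The other 4 ages place the chosen genes in the course of growth. For each of the 40 genes the mean log2(FPKM + 0.1) at another age was set against the midpoint between 240 and 180 days. Of the 20 genes higher at 240 days, 18 lay on the 240-day side at 300 days and 13 at 360 days, while 6 did so at 60 days and 4 at 120 days. Replicate 2 of 300 days also carried liver transcripts, summed to 1144 FPKM against 27.4 and 7.75 FPKM in the other 300-day libraries, and without it, a choice made after seeing the data, the count at 300 days was 11 in place of 18. Of the 20 lower genes, 10 lay on the 240-day side at 300 days and 15 at 360 days, while 4 did so at 60 days and 6 at 120 days. Since the 40 genes were chosen by the 240- and 180-day values, means at other ages can fall between the 2 stages for that reason alone, and these counts are a description without a test.

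FOSB, GALNT15 and ZSWIM4 stayed high at the later ages. GALNT15 was also within its 240-day range of 3.47 to 12.2 FPKM at 120 days, with 3.76, 4.135 and 5.39 FPKM. FOSB had 6.77, 15.4 and 10.2 FPKM at 60 days, 4.22, 5.92 and 7.16 at 120 days, 43.3, 16.1 and 39.0 at 300 days and 72.7, 33.2 and 71.2 at 360 days. ZSWIM4 had 1.95 to 2.02 FPKM at 60 days, 4.86, 4.42 and 8.72 FPKM at 300 days and 10.9, 6.26 and 9.79 FPKM at 360 days. PPP1R1A stayed low later: it had 12.4, 13.5 and 14.7 FPKM at 60 days, 4.53, 5.74 and 3.84 FPKM at 300 days and 3.89, 2.61 and 4.24 FPKM at 360 days. SCD had no such course: it had 2191, 1657 and 1176 FPKM at 60 days, 1174, 1287 and 633.2 FPKM at 120 days, 1711, 1693 and 1331 FPKM at 300 days and 2537, 1317 and 1046 FPKM at 360 days. Its 120-day libraries lay within or below the 240-day range, and at 360 days replicate 1 was the high one. CPXM1 was at its lowest at 240 days, and its lowest value at any other age was 2.24 FPKM at 360 days, above the 240-day maximum of 1.77 FPKM.

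**Figure D5:**
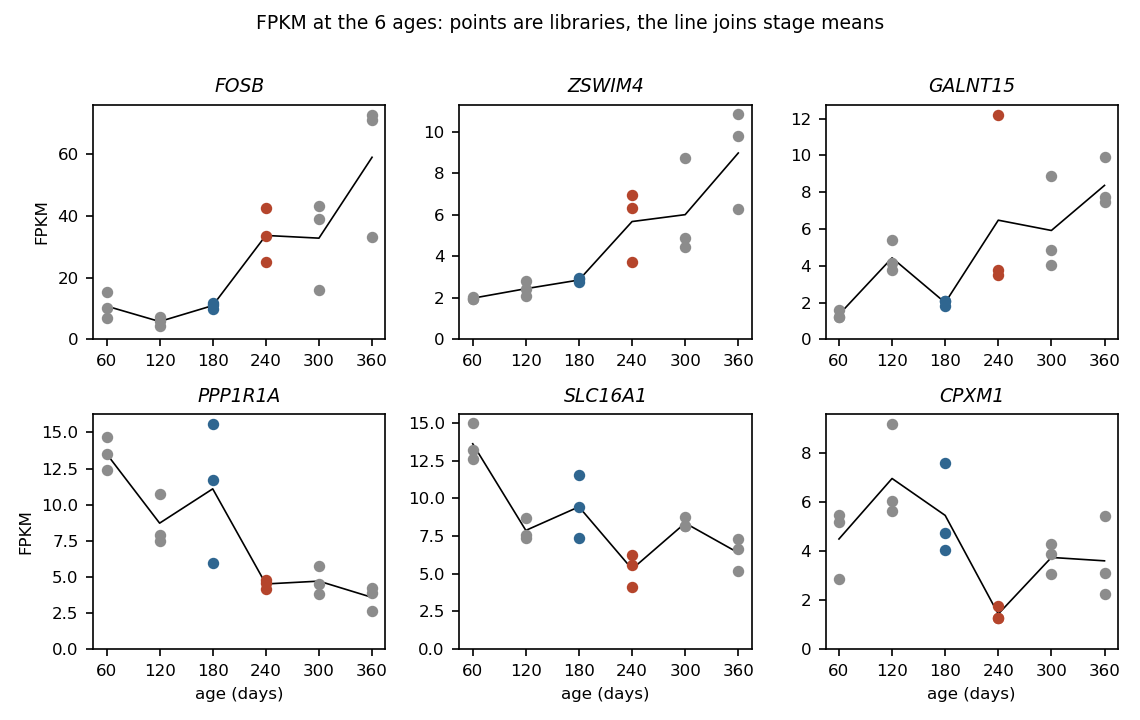
FPKM of 6 genes at the 6 ages (3 libraries each, the line joins the means). FOSB, ZSWIM4 and GALNT15 are higher from 240 days on than at 60 days, PPP1R1A is lower from 240 days on, and SLC16A1 and CPXM1 have their lowest stage mean at 240 days.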

How the data were processed

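Per the labels and the methods of the study, total RNA was depleted of ribosomal RNA and sequenced as paired ends, and the authors used Cutadapt for adapter removal, Hisat2 for mapping (pig genome version 11.1, Ensembl 96) and StringTie for assembling loci. The FPKM values deposited by the authors come from StringTie, per locus and library. The counts deposited by the authors are whole numbers, and neither the way of counting nor any scaling is given in the sources used here. No other sample columns were present (0).

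The comparison was tested with the quasi-likelihood F test in edgeR, version 4.0.16, from the counts, with TMM scaling and robust moderation, in 1 fit of all 18 libraries with 6 stage groups. The common biological coefficient of variation was 0.337, with 12 residual degrees of freedom. Standard errors were taken as the log2 fold change over the root of its F value. Groups "apart" have no overlap in scaled CPM. The test was tested on simulated data first. Alternatives used DESeq2 (version 1.42.0), limma (version 3.58.1), other scalings and filters, and each library left out. Where a symbol had several loci, the annotated locus with the highest mean count was taken. Some named genes share a locus with another gene name, so their reads cannot be split: PER1, SREBF1, PLIN1 and PNPLA2. Of 6214 Ensembl identifiers, 1149 had a symbol. Members, lists and rules were chosen with earlier results of these data known. Genes were named by the size rule given with them, as members of a list or as QPCR genes. P-values measure the spread between pigs of 1 family per stage. Some results are not reported here.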

Additional observations from a re-analysis of the deposited data

How the results depend on the processing

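The count of calls was 0 under 11 of the alternatives: median-of-ratios scaling, no filter, a filter of 1 FPKM, limma on log2 FPKM with pseudocounts of 1, 0.1 and 0.01, no robust moderation, the Y-linked level as a covariate, X and Y kept, adjusted p alone, and the replicate number as a block. It was 91 with DESeq2 (58 higher, 33 lower), 75 with edgeR's exact test on only the 6 libraries (44 higher, 31 lower), 2 with the quasi-likelihood test on those 6 libraries (loci of NOBOX and MBNL2) and 1 with limma-voom and library weights. Leaving out each of the 18 libraries gave 0 to 4 calls, all higher at 240 days. The 4 came without 300-day replicate 3, 3 without 120-day replicate 3, 2 each without 180-day replicate 1 (YBX2 and IL1RAP) and 360-day replicate 1, and 1 without 360-day replicate 2. The cause was not tested. Over all ages, equal replicate numbers did not pair the samples: the mean correlation of deviations was 0.0187 over 45 pairs with equal numbers and -0.00896 over 90 with different ones, 5 of 18 libraries correlated best with their own number, and the block left 0 calls. Between 240 and 180 days the correlation was 0.213 for replicate number 1, -0.0444 for number 2 and -0.00343 for number 3. The reason for the higher value of number 1 was not tested.

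Loci apart between the stages numbered 2720 (1358 higher, 1362 lower), and 2662 by unscaled CPM, 2748 by deposited FPKM and 2605 with a filter of 1 FPKM. By deposited FPKM the split was 1059 higher against 1689 lower. The 152 genes followed through the alternatives were chosen on these same counts, and none of them passed in the main fit. The alternative of adjusted p alone repeats that fit. The tally is therefore not independent evidence: over all alternatives that gave a value, 4967 values kept their direction and side of the threshold and 45 passed it. The 4 that turned round did so without 180-day replicate 1 and are genes of muscle: with each library left out in turn, ENO3 ran from -3.99 to 0.15, ATP2A1 from -5.66 to 0.34, MYH2 from -7.75 to 0.30 and MYL1 from -7.72 to 0.14. The 3 pigs of 1 family per stage limit every value.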

Other observations

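Some loci outside the rules for named genes were singled out after their values were seen. The locus that carries ssc-mir-143 and ssc-mir-145, microRNAs known from smooth muscle, had the lowest p of all loci. It had 11.8, 8.98 and 12.1 FPKM at 240 days, against 5.09, 5.33 and 4.32 FPKM at 180 days (log2 fold change 1.19, SE 0.17, edgeR adjusted p = 0.060). At the other ages it had 4.93 to 6.54 FPKM at 60 and 120 days and 8.15 to 17.0 FPKM at 300 and 360 days, so all 9 libraries from 240 days on lay above all 9 younger ones. The locus also carries a gene identifier, and the FPKM values do not measure the mature microRNAs. One of the loci of RGCC, a regulator of the cell cycle, had 30.0, 26.5 and 30.0 FPKM at 240 days, against 10.6, 16.8 and 11.3 FPKM at 180 days (1.203, SE 0.21).

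A locus named MBNL2 on chromosome 11 had 1.77, 1.31 and 2.33 FPKM at 240 days and was listed at 0 in the 3 libraries of 180 days. Of the other 12 libraries only 120-day replicate 3 was also listed at 0, and the other 11 held 1.77 to 2.56 FPKM. It has no transcript type in the deposited table, and its adjusted p was 0.21.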
